A study of Rattus norvegicus with 66 samples.

Results

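The 5 genes described here carry γ-aminobutyric acid (GABA) through its life at the synapse: Gad1 and Gad2, the glutamate decarboxylases that make GABA, Slc32a1, the transporter that loads it into synaptic vesicles, Slc6a11, a plasma membrane GABA transporter, and Abat, the transaminase that breaks it down. They were chosen by symbol, as the rows of the count tables whose name in the accompanying gene map was 1 of these symbols. Each symbol had 1 row, so that 5 of 37777 rows were members: gene8097 (Gad1), gene32510 (Gad2), gene9704 (Slc32a1), gene11732 (Slc6a11) and gene22012 (Abat). All 5 passed the filter on low counts in every comparison, and the lowest count in any pup was 262, for Slc32a1.

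GABA is made from glutamate by decarboxylation. The enzyme encoded by Gad1 (GAD67) is found throughout the neuron, whereas the enzyme encoded by Gad2 (GAD65) is concentrated at nerve terminals. The vesicular transporter encoded by Slc32a1 (VGAT) serves neurons that release GABA or glycine, and GABA that has left the vesicle is taken up by transporters of neurons and astrocytes, of which the one encoded by Slc6a11 (GAT-3) is mainly astrocytic. In the hippocampus of the first postnatal week GABA comes from interneurons, and it still depolarizes many of its target neurons. Projection neurons of the striatum and the reticular nucleus of the thalamus also use GABA, so that tissue of these regions contains the same mRNAs.

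RNA-seq was performed on dorsal hippocampus of 64 Long Evans rat pups, 41 males and 23 females, on postnatal day (PND) 6. The dams were exposed to Aroclor 1254 (a mixture of polychlorinated biphenyls) or bisphenol A (a plasticizer component) in soy-free chow, starting 2 weeks before mating, or to chlorpyrifos (an organophosphate insecticide) by subcutaneous injection during pregnancy and lactation. Controls received no compound: 4 males and 5 females of the feeding arm (CONF) and 5 males and 5 females of the injection arm, whose dams received vehicle (CONSC). The higher doses were 5 mg/kg of Aroclor 1254 (Aro5; 6 males, 5 females), 5 mg/kg of bisphenol A (BPA5; 7 males, 4 females) and 3 mg/kg of chlorpyrifos (CPF3; 7 males, 4 females). The lower doses, in 4 males each, were Aro0.5 and BPA0.5 at 0.5 mg/kg and CPF1 at 1 mg/kg. The vehicle of the injection controls is saline in the sample labels and dimethyl sulfoxide in the published methods. The dissected piece held hippocampus with adjoining lateral cortex. Pups are named by litter and pup number; 2 Aro5 males shared litter 120 and 2 Aro5 females litter 115, and several litters gave a pup of each sex.

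The bases before the start of the genes are shown because Gad1, Gad2 and Slc32a1 varied together across pups, and Slc6a11 with them less closely. The correlation of Slc6a11 with Gad1 did not pass the test in either sex, but in males its r with Gad2, Slc32a1 and Abat did. A link of the bases to these correlations was not tested. RefSeq promoter entries (build GRCr8, not the build of the counts) existed for 4 of the 5 members, and the bases before the gene start are given 5′ to 3′ on the plus strand. They lie at chr3:75777202-75777259 (Gad1), chr17:89671468-89671717 (Gad2), chr3:167686995-167687244 (Slc32a1) and chr4:148853307-148853556 (Slc6a11). Capitals mark matches, on either strand, to a TATA box (TATAAA), a GC box with the letters GGGCGG, or the core of homeodomain sites with the letters TAATTA.
Gad1: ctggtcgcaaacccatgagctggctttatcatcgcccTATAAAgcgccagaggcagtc
Gad2: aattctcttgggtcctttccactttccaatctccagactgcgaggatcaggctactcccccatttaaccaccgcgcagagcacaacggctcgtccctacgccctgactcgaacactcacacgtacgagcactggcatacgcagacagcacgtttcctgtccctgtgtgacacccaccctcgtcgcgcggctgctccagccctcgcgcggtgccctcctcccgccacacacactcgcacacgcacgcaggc
Slc32a1: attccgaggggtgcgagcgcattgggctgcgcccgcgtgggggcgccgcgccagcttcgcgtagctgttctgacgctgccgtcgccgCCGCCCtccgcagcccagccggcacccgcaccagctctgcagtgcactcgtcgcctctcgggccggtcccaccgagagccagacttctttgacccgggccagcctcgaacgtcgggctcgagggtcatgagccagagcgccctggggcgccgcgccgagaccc
Slc6a11: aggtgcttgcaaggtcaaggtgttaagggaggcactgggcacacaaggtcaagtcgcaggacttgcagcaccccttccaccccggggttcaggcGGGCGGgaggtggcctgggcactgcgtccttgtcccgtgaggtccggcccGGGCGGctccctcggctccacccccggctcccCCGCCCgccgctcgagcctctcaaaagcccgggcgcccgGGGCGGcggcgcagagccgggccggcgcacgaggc

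Over the first 250 bases of each entry, 12.9% of 33469 RefSeq promoter entries held TATAAA, 30.5% held GGGCGG and 4.86% held TAATTA. For these shares no entry was cut at the gene start, whereas the sequences above were. TATAAA was present 21 to 16 bases before the RefSeq start of Gad1, for which the entry held only 58 bases before the gene start. The GC box was found 4 times before Slc6a11 and 1 time before Slc32a1. The 250 bases of Gad2 held no match to any of these motifs, and none of the 4 sequences held TAATTA. The share of G and C was 62% for Gad2 and 73.6% for both Slc32a1 and Slc6a11. The median over the first 250 bases of all entries was 51.2%. These matches describe the letters of the windows alone.

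Library totals ranged from 10644138 to 86206550 counts, with a median of 20740650, and each level is a CPM, the count of a gene scaled to a library total of 1000000. Of the 66 libraries, 2 pairs bore the name of the same pup (male CONF N2-2y and female CONF N4-3x), and their counts were summed. The libraries of N2-2y list 1 dissection time, whereas those of N4-3x list 12.09 and 11.55 h, so that they were joined by name alone. The published methods give a dissection window of 10.30 to 13.20 h, and 11 of the 66 libraries list a time outside it. With only pups within this window, the log2 fold change against controls of Slc32a1 in Aro5 males was −0.15 instead of 0.07. That of Gad2 in CPF3 females was −0.07 instead of 0.11, among other changes of sign. Library names had 2 forms, here called A and B. In males, names of form A ended in a capital Y and those of form B in a small y. In female controls, names of form A had a low line between group and pup, and those of form B did not. Whether the form marks the same difference in both sexes was not tested. Of the 10 libraries of male controls 9 were of form A, as were all 12 of low-dose males. All 20 of high-dose males and 1 of N2-2y were of form B, and among female controls 5 were A and 6 were B. In males, the form and the high dose can therefore hardly be told apart. All 7 genes listed for hippocampal excitatory neurons had counts in every pup (9 at the lowest), and their sum ranged from 215 to 906 CPM. Genes listed for neighbouring regions varied more: the sum of 9 striatal genes (among them Drd1, Drd2, Adora2a and Ppp1r1b) ranged from 108 to 1586 CPM, that of 7 thalamic genes from 140.0 to 1314 CPM, and that of 5 neocortical genes from 81.1 to 756 CPM. Female CONSC 9-1x stood apart, with the highest striatal sum (1586 CPM), the lowest hippocampal sum (215 CPM) and the lowest neocortical sum (81.1 CPM) of all pups. Tests of the members that involve the female controls are therefore in part also given without this pup, though not for every member. In bulk RNA, fewer cells of a type and less mRNA per cell cannot be told apart.

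Across all 64 pups, Slc32a1 and Gad2 varied most and Slc6a11 least. Slc32a1 ranged from 16.8 to 176 CPM with a median of 61.2 CPM (coefficient of variation, 45.6%), and Gad2 from 20.7 to 92.4 CPM with a median of 38.4 CPM (36.1%). Gad1 ranged from 86.9 to 285 CPM with a median of 148 CPM (25.9%). Abat ranged from 23.45 to 56.2 CPM with a median of 39.3 CPM (19.2%), and Slc6a11 from 78.6 to 164 CPM with a median of 107 CPM (14.0%). The synthesis and packaging genes thus varied more over all pups than Slc6a11 did, with differences between sexes and groups included. CPM is not corrected for transcript length, so that levels were compared between pups and not between genes.

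**Figure D1:**
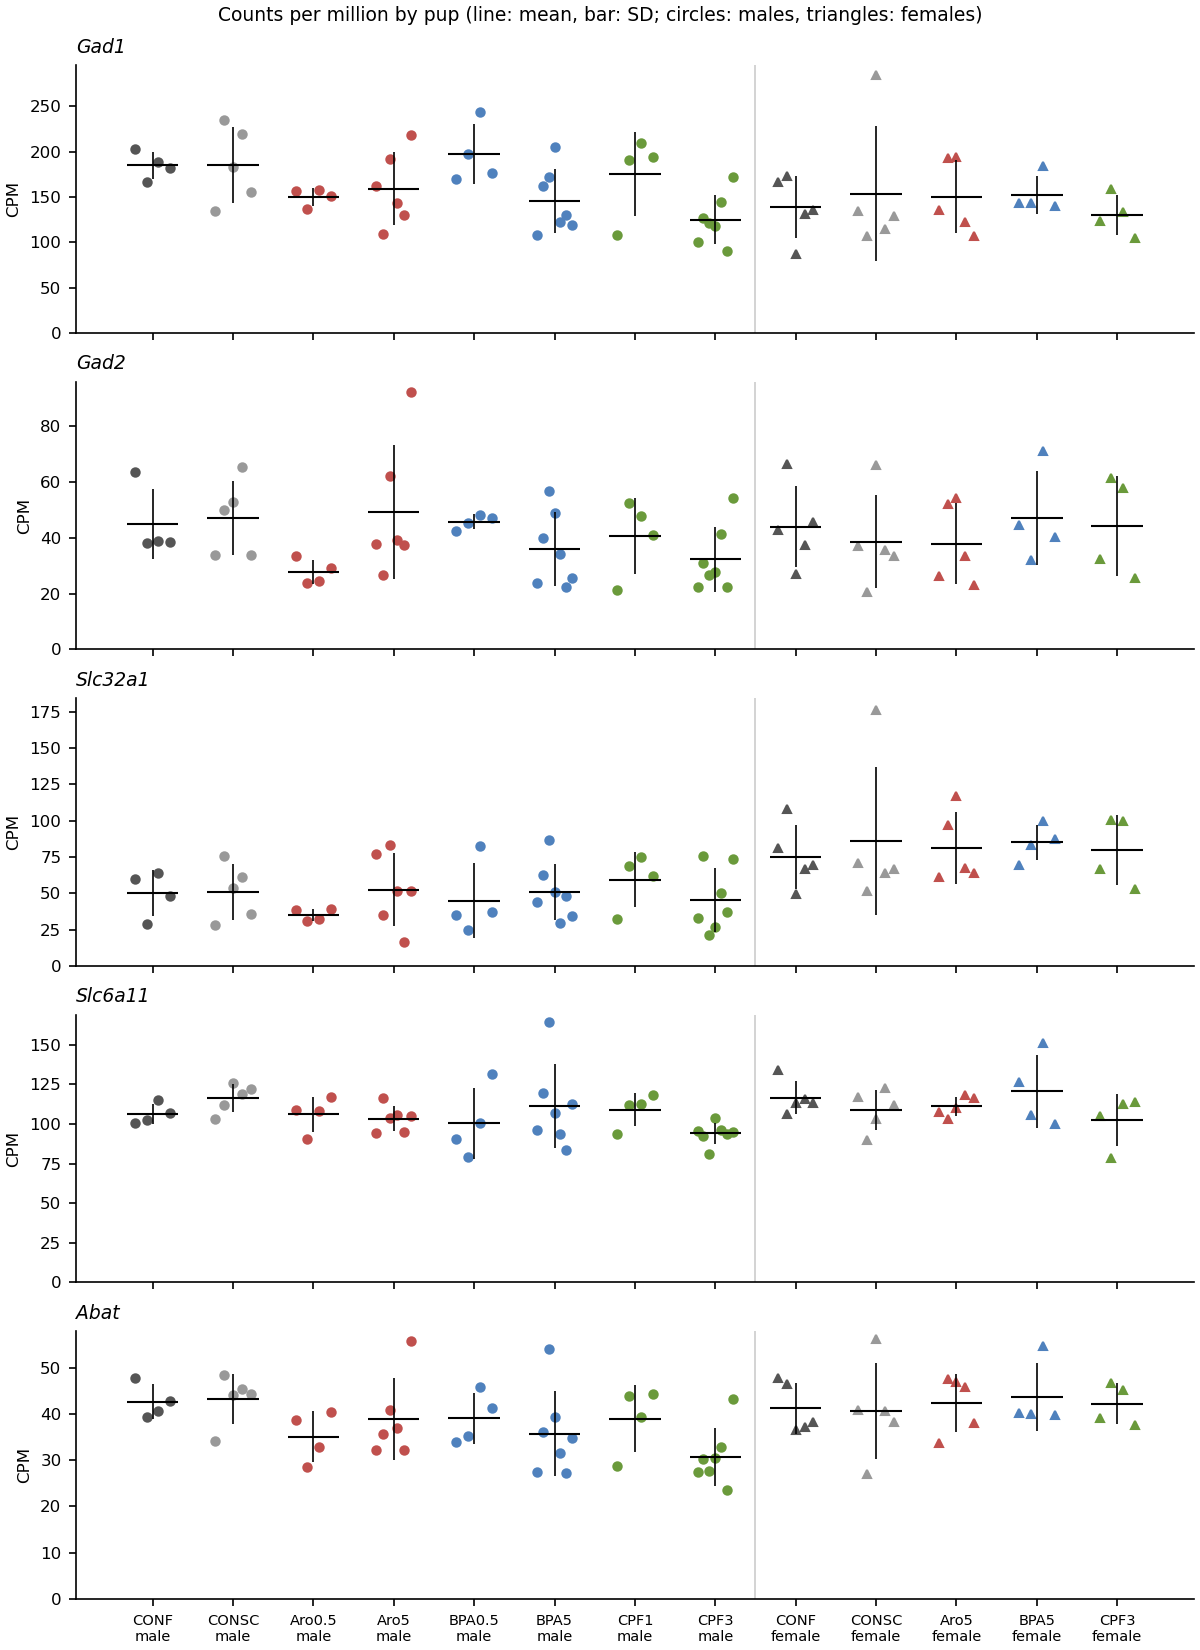
CPM of each member (y axis, from 0) in every pup of the 13 groups (x axis), with circles for males, triangles for females, a line at the group mean and a bar of 1 SD. Gad1, Gad2, Slc6a11 and Abat sit lower in CPF3 males than in most control males. Gad2 is low in all 4 Aro0.5 males, and Slc32a1 sits higher in females than in males.

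In the order of the 13 group means, no step between neighbours exceeded the larger of their 2 SDs, for any of the 5 genes. Mean Gad1 was highest in BPA0.5 males (197 CPM) and lowest in CPF3 males (125 CPM), a ratio of 1.58. Gad2 went from 49.3 CPM in Aro5 males to 27.7 CPM in Aro0.5 males (ratio 1.78). Slc32a1 went from 86.0 CPM in CONSC females to 35.0 CPM in Aro0.5 males (ratio 2.45). In Slc32a1 the means of all 5 female groups stood above those of all 8 male groups. Slc6a11 went from 121 CPM in BPA5 females to 94.0 CPM in CPF3 males (ratio 1.28), and Abat from 43.7 to 30.7 CPM in the same groups (ratio 1.42).

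The first question was whether exposure of the dam altered these genes in male offspring at the high dose, with the 9 male CONF and CONSC pups combined as controls. In Aro5, BPA5 and CPF3 males, no member passed a Benjamini-Hochberg adjusted p of 0.05 (edgeR, quasi-likelihood test over 16393 genes). Over all genes, 0.195%, 0.189% and 0.159% passed in these comparisons. At an unadjusted p under 0.05, 0 of 5 members passed in Aro5 males (11.8% of all genes), 1 of 5 in BPA5 males (9.1%) and 4 of 5 in CPF3 males (12.6%). The 4 in CPF3 males all had lower levels than controls, a direction in which 7.26% of all genes passed.

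Gad1 had the smallest p of the members in CPF3 males. Its level in the 9 male controls was 134 CPM at the lowest, 183 CPM at the median and 235 CPM at the highest, and in the 7 CPF3 males 90.4, 121 and 172 CPM. All 7 CPF3 males lay below the control median and 5 of them below the lowest control, but the groups overlapped. The log2 fold change was −0.56 (SE 0.15), or 0.679-fold (95% interval, 0.550 to 0.838), with an unadjusted p of 0.00075 and an adjusted p of 0.145 in edgeR. DESeq2's test gave the same change of −0.56 with an adjusted p of 0.044, and 0.5% of all genes passed in that fit. Over the 39 alternative settings, the log2 fold change of Gad1 stayed between −0.65 and −0.49, and the adjusted p ranged from 0.044 to 1.00.

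Abat, the degrading enzyme, had the next smallest p. Its level was 34.0, 44.0 and 48.3 CPM (lowest, median and highest) in male controls and 23.45, 30.3 and 43.2 CPM in CPF3 males, of which 6 of 7 lay below the lowest control. The log2 fold change was −0.47 (SE 0.13), or 0.721-fold (95% interval, 0.598 to 0.868), and by edgeR the unadjusted p was 0.0012 and the adjusted p 0.165. Gad2 was 33.9, 39.0 and 65.2 CPM in male controls and 22.4, 27.8 and 54.3 CPM in CPF3 males, with 5 of 7 below the lowest control. The change was −0.50 on the log2 scale (SE 0.24), and the adjusted p in edgeR was 0.389.

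Slc6a11, with its narrow spread, was 101, 112 and 126 CPM in male controls and 81.2, 94.9 and 104 CPM in CPF3 males. In 6 of 7 CPF3 males it lay below the lowest control. The change was small, −0.24 on the log2 scale (SE 0.09), and its adjusted p in edgeR was 0.310. Slc32a1 was 28.5, 53.4 and 75.7 CPM in male controls and 21.4, 36.9 and 75.8 CPM in CPF3 males. This spread spanned that of the controls, and the log2 fold change was −0.14 (95% interval, −0.74 to 0.45).

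Markers of other cells moved alongside in CPF3 males. The striatal sum was 155, 488 and 805 CPM in male controls and 160, 192 and 770 CPM in CPF3 males, with log2 fold changes below 0 for 9 of 9 striatal genes (median −0.77, against 0.003 over all genes), 5 of them at an unadjusted p under 0.05 and none at an adjusted one in edgeR. The astrocyte sum was 1569, 1830 and 1971 CPM in controls and 1279, 1582 and 1850 CPM in CPF3 males, with 7 of 8 astrocyte genes below 0 (median −0.19). Of 16 interneuron genes 15 were tested, of which 7 lay below 0 (median 0.02). The interneuron sum was 519, 569 and 636 CPM in controls and 515, 538 and 636 CPM in CPF3 males. This sum follows mostly Reln and Calb2, with medians of 159 and 157 CPM over all pups, where the sum had 572 CPM. The neocortical sum was 205, 317 and 510.2 CPM in controls and 302, 421 and 756 CPM in CPF3 males, with 5 of 5 genes above 0 (median 0.45). Log2 fold changes were below 0 for 5 of 5 microglial genes (median −0.30), 6 of 6 genes of the oligodendrocyte lineage (median −0.19) and 5 of 5 genes of the choroid plexus (median −0.35). Their part in the values of the members was not tested. The libraries of CPF3 males were all of form B, and with the form as a covariate the log2 fold changes were −0.61 for Gad1, −0.67 for Abat, −0.80 for Gad2, −0.20 for Slc6a11 and −0.73 for Slc32a1, each with an adjusted p of 1.00 in edgeR. That fit rests on the 2 libraries of 1 control pup.

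In BPA5 males, Gad1 was 108, 130 and 205 CPM, against 134, 183 and 235 CPM in controls. The log2 fold change was −0.34 (SE 0.15), with an unadjusted p of 0.029 and an adjusted p of 0.523 in edgeR, and 4 of 7 pups lay below the lowest control. The other members had log2 fold changes of −0.35 (SE 0.24, Gad2), −0.25 (SE 0.13, Abat), 0.02 (SE 0.29, Slc32a1) and −0.00 (SE 0.09, Slc6a11). In Aro5 males the log2 fold changes lay between −0.20 (SE 0.15, Gad1) and 0.10 (SE 0.25, Gad2), with adjusted p values of 0.660 or more in edgeR. Gad2 of Aro5 males ranged from 26.5 to 92.4 CPM with a median of 38.6 CPM, below and above the range of the controls. The highest value came from pup 120-2y, which also had the highest Abat (55.8 CPM) of the group and a striatal sum of 1046 CPM. Without that pup the change of Gad2 was −0.17.

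**Figure D2:**
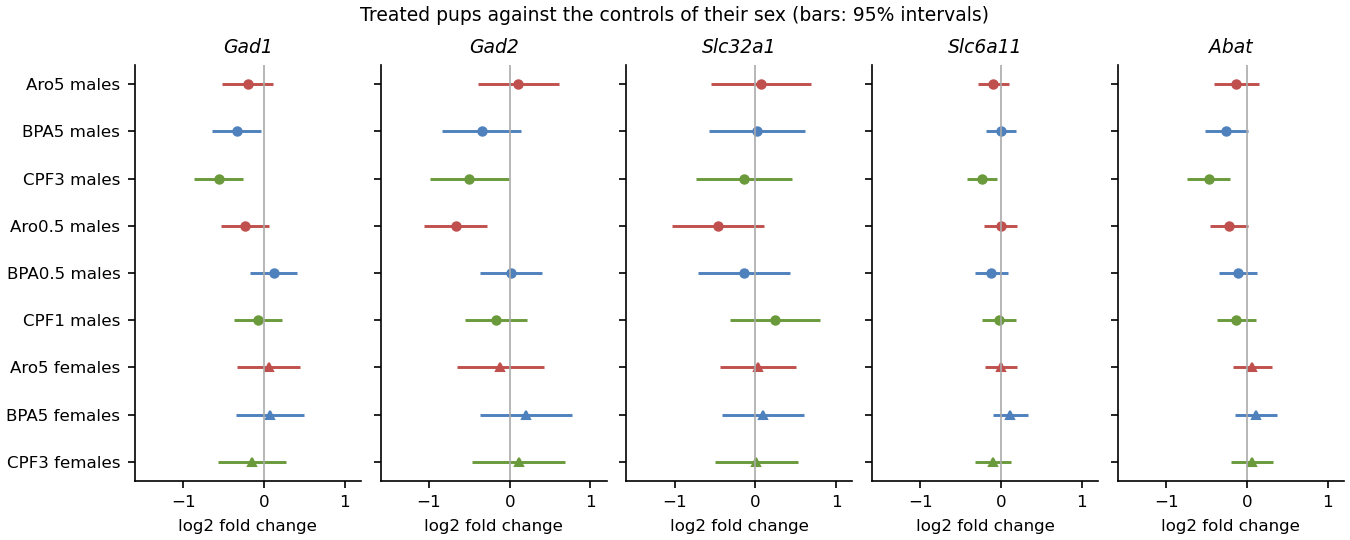
Log2 fold change of each member (x axis) in the 9 treated groups against the controls of their sex (rows), with circles for males, triangles for females and bars for 95% intervals from edgeR. In CPF3 males the intervals of Gad1, Gad2, Slc6a11 and Abat lie below 0, as do those of Gad1 in BPA5 males and Gad2 in Aro0.5 males, and no value passed an adjusted p of 0.05.

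The low-dose males were compared with the same 9 controls. No member passed an adjusted p of 0.05 in edgeR among 16139 genes (0.124% of all genes passed in Aro0.5, 0.0434% in BPA0.5 and 0% in CPF1 males). At an unadjusted p under 0.05, 1 of 5 members passed in Aro0.5 males (18.5% of all genes), and 0 of 5 in BPA0.5 (8.58%) and CPF1 males (2%). That member was Gad2. Its values in the 4 Aro0.5 males were 23.9, 24.5, 29.1 and 33.5 CPM, against 33.9 to 65.2 CPM in the controls. Every Aro0.5 male lay below every control, as was so for 1.34% of the genes tested. The log2 fold change was −0.67 (SE 0.19), or 0.629-fold (95% interval, 0.479 to 0.825), with an unadjusted p of 0.0018 and an adjusted p of 0.124 in edgeR. By DESeq2 the change was also −0.67, with an adjusted p of 0.038, and 1.67% of all genes passed there. Over the 30 alternative settings the change lay between −0.75 and −0.60 and the adjusted p between 0.038 and 0.456.

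In Aro0.5 males, the packaging gene Slc32a1 had values of 30.7, 32.1, 38.2 and 39.1 CPM, all below the control median of 53.4 CPM and within the control range. Its log2 fold change was −0.46 (SE 0.28). Gad1 (136, 151, 157 and 157 CPM) also lay below the control median of 183 CPM in all 4 pups, with a log2 fold change of −0.23 (SE 0.14), and Abat had −0.22 (SE 0.11). Slc6a11 was 90.7, 108, 109 and 117 CPM, with 1 pup below the lowest control and a log2 fold change of −0.01 (SE 0.10). The striatal sum of these 4 pups was 131 to 413 CPM, with a median of 236 CPM against 488 CPM in controls, and 8 of 9 striatal genes had an unadjusted p under 0.05, all lower. The thalamic sum was 735 to 1259 CPM, with a median of 1145 CPM against 616 CPM in controls, and 6 of 7 thalamic genes had log2 fold changes above 0 (median 0.65), 5 of the 7 with an unadjusted p under 0.05. The neocortical sum had a median of 178 CPM against 317 CPM, with 5 of 5 genes below 0 (median −0.42), as were 5 of 5 genes of the choroid plexus (median −0.52). Of the 15 interneuron genes tested 13 had log2 fold changes below 0 (median −0.41, against 0.003 over all genes), 10 of the 15 had an unadjusted p under 0.05 and 1 a lower level at an adjusted p under 0.05 in edgeR. The interneuron sum reached 582 CPM with a median of 532 CPM, against a control median of 569 CPM. Within it, Calb2 had a median of 212 CPM (157 CPM in controls) and Reln one of 137 CPM (159 CPM in controls). Of 9 mitochondrially encoded genes, 7 were higher at an adjusted p under 0.05 in edgeR. The part of these in the values of Gad2 was not tested.

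In BPA0.5 males, Gad2 was 42.4, 45.2, 47.3 and 48.3 CPM, with an SD of 2.61 CPM, the smallest of the 13 groups, and its log2 fold change was 0.02 (95% interval, −0.36 to 0.40). In CPF1 males, 1 pup (16-7y) had the lowest value of the group in each of the 5 genes, with 108 CPM of Gad1, 21.4 CPM of Gad2, 32.2 CPM of Slc32a1, 93.7 CPM of Slc6a11 and 28.6 CPM of Abat. The remaining CPF1 males lay within the range of the controls in every member. Log2 fold changes lay between −0.14 and 0.12 in BPA0.5 and between −0.17 and 0.24 in CPF1 males. The low and high groups of a compound were not tested against each other, and both were set against the same controls. Gad1 had log2 fold changes of −0.07 in CPF1 and −0.56 in CPF3 males, and Gad2 had −0.67 in Aro0.5 and 0.10 in Aro5 males.

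In females no member passed an adjusted p of 0.05 in any comparison with the 10 female controls, nor did any gene of the 16992 tested by edgeR (0% in each). At an unadjusted p under 0.05, 0 of 5 members passed in each treated group, against shares of all genes of 3.23% (Aro5), 4.08% (BPA5) and 8.79% (CPF3). DESeq2 passed none of the members either. Gad1 of CPF3 females was 105, 124, 133 and 158 CPM, against 86.9, 133 and 285 CPM (lowest, median and highest) in controls, a log2 change of −0.15 (95% interval, −0.57 to 0.28). Abat of CPF3 females was 37.7, 39.0, 45.2 and 46.6 CPM, against 27.1, 39.4 and 56.2 CPM in controls, with a log2 fold change of 0.07 (95% interval, −0.20 to 0.33). All treated females lay within the control range of Gad1, Slc32a1 and Abat. Outside the range of Gad2 was 1 BPA5 female (85-4x, 71.0 CPM), and outside that of Slc6a11 were 1 BPA5 female (85-4x, 151 CPM) and 1 CPF3 female (38-5x, 78.6 CPM).

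The range of the female controls was set at its upper end by pup 9-1x in Gad1 (285 CPM), Slc32a1 (176 CPM) and Abat (56.2 CPM). Without this pup, the log2 fold changes of Gad1 were 0.22 (Aro5), 0.23 (BPA5) and 0.01 (CPF3), where they had been 0.06, 0.08 and −0.15. Those of Slc32a1 were 0.23, 0.29 and 0.21, where they had been 0.03, 0.09 and 0.01, and no member passed an adjusted p of 0.05 in edgeR. Since the treated females' library form was not read from their names, the form and the treatment cannot be told apart in this comparison.

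Whether males and females responded differently was tested by the sex by treatment interaction in 1 fit of both sexes. No member passed an adjusted p of 0.05 in edgeR among 17282 genes (0.0984% of all genes for Aroclor 1254, 0.0405% for bisphenol A and 0.0463% for chlorpyrifos). Abat had the smallest p of the members, for chlorpyrifos: the male effect was lower than the female effect by a log2 difference of −0.53 (SE 0.19), with an unadjusted p of 0.0081 and an adjusted p of 0.841 in edgeR. That was 1 of 5 members at an unadjusted p under 0.05, against 5.6% of all genes; for the other compounds it was 0 of 5, against 8.92% (Aroclor 1254) and 2.79% (bisphenol A). For Gad1 the difference was −0.40 (SE 0.25) and for Gad2 −0.61 (SE 0.38). Without control female 9-1x these differences were −0.59 (Abat), −0.56 (Gad1) and −0.70 (Gad2), and again no member passed (adjusted p of 0.465 or more in edgeR for the members over the 3 compounds). The lower values of CPF3 males were thus not shown to be particular to males.

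Compounds were also set against each other at the same dose level, where only Aroclor 1254 and bisphenol A had equal doses in mg/kg. None of the 9 comparisons, 3 each in high-dose males, low-dose males and high-dose females, had a member with an adjusted p under 0.05 in edgeR. The share of all genes that passed was 0% in 8 of them and 0.0248% in BPA0.5 against CPF1 males. At an unadjusted p under 0.05, 3 of 5 members passed between Aro5 and CPF3 males (4.17% of all genes), all lower in CPF3: Gad1 differed by 0.36 (SE 0.16), Gad2 by 0.61 (SE 0.26) and Abat by 0.34 (SE 0.14). Slc6a11 passed between BPA5 and CPF3 males (2.7% of all genes), with a difference of 0.24 (SE 0.10). No member passed between Aro5 and BPA5 males (4.4%) or between any pair of female groups (2.21%, 8.3% and 8.32%). Gad2 (−0.50) and Slc32a1 (−0.70) passed between Aro0.5 and CPF1 males (7.26%), and no member between BPA0.5 and CPF1 males (11.7%). Between Aro5 and BPA5 males, Gad2 was higher in Aro5 by 0.45 (SE 0.26; 95% interval, −0.08 to 0.98), and Gad1 by 0.14 (SE 0.16; 95% interval, −0.19 to 0.47). Between Aro0.5 and BPA0.5 males, the 4 values of Gad2 did not overlap (23.9 to 33.5 against 42.4 to 48.3 CPM), with a log2 difference of −0.69 (SE 0.22), an unadjusted p of 0.0043 and an adjusted p of 0.286 in edgeR, where Gad1 also passed an unadjusted p of 0.05 (−0.35), as did 15.4% of all genes. Groups separated in this direction in 1.83% of genes. Between Aro5 and BPA5 females, Gad2 differed by −0.31 (95% interval, −0.97 to 0.34). The intervals of these pairs are wide, so that equal levels were not shown.

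The route of exposure of the controls made no difference that passed the test. Between CONF and CONSC pups, 0 of 5 members had an adjusted or unadjusted p under 0.05 in edgeR, in either sex (0.013% of genes with an adjusted and 0.988% with an unadjusted p under 0.05 in males, 0% and 4.29% in females). Male CONF and CONSC had 185 ± 14.9 (SD, n = 4) and 185 ± 42.3 CPM (SD, n = 5) of Gad1. Female CONF and CONSC had 139 ± 34.3 (SD, n = 5) and 154 ± 74.3 CPM (SD, n = 5), the latter with pup 9-1x at 285 CPM and the other 4 at 107 to 134 CPM. The log2 difference of Gad1 between female CONF and CONSC was −0.14, and 0.20 without that pup. For Slc32a1 the difference was −0.19, and 0.24 without that pup.

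Control females and control males differed in Slc32a1. The packaging gene was 28.5, 53.4 and 75.7 CPM (lowest, median and highest) in 9 males and 49.2, 68.3 and 176 CPM in 10 females, of which 8 lay above the male median and 3 above the highest male. It was higher in females, with a log2 difference of 0.70 (SE 0.22), or 1.63-fold (95% interval, 1.19 to 2.23), and an adjusted p of 0.0167 in edgeR. The other 4 members did not pass. Thus 1 of 5 members passed, no larger a share than the 30.9% of all 15763 genes (40.8% at an unadjusted p under 0.05). Without pup 9-1x the difference of Slc32a1 was 0.51 (adjusted p = 0.0243 in edgeR), and with each control pup left out in turn it stayed between 0.51 and 0.80, with adjusted p values of 0.0087 to 0.0365. The same direction held over all pups, in which Slc32a1 was 16.8, 48.1 and 87.0 CPM in 41 males and 49.2, 69.7 and 176 CPM in 23 females, all of them above the male median.

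For Gad1 the 2 sexes stood the other way round. Its level was 134, 183 and 235 CPM in control males and 86.9, 133 and 285 CPM in control females, and 9 of 10 females lay below the male median, the exception being 9-1x. The log2 difference was −0.30 (SE 0.16, adjusted p = 0.145 in edgeR). Without 9-1x it was −0.46, with an adjusted p of 0.0026, and 2 of 5 members passed, where 36.5% of all genes did. In each of the 7 litters with a control pup of both sexes the female had less Gad1 than the male, by a ratio of 0.572 to 0.916 (median 0.735). In Slc32a1 the female of the same 7 litters was higher in 5, with a ratio of 0.936 to 2.30 (median 1.36). Gad2 differed by −0.12 (SE 0.18), Abat by −0.03 (SE 0.09) and Slc6a11 by 0.05 (SE 0.06) between the sexes. The striatal sum was 155, 488 and 805 CPM in control males and 199, 320 and 1586 CPM in control females, and the interneuron sum 519, 569 and 636 CPM and 536, 582 and 694 CPM. None of the 9 striatal genes and 4 of the 15 interneuron genes had an adjusted p under 0.05 in edgeR, the 4 all higher in females, and their part in the value of Slc32a1 was not tested.

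The form of the library name moved with the sex difference, since control males were nearly all of form A. Within form A, Slc32a1 was 28.5, 48.1 and 75.7 CPM in 9 male libraries and 51.3, 81.2 and 176 CPM in 5 female ones, a log2 difference of 1.04 (adjusted p = 0.0136 in edgeR). Without 9-1x, whose library is of form A, it was 0.70 and no longer passed (adjusted p = 0.059 in edgeR). Form B held 1 male library, at 76.4 CPM, within the 49.2 to 101 CPM of 6 female ones. That library and a form A library bore the name of the same male, N2-2y, and they held 1355 and 693 counts of Slc32a1, or 76.4 and 42.1 CPM, a ratio of 1.81 (exact 95% interval for counting error, 1.65 to 1.99). The 2 libraries of 1 pup thus differed by more than the 1.63-fold between the sexes. In the 2 libraries named for female N4-3x, which differ in their listed dissection time, the ratio of form B to form A was 0.892 (0.842 to 0.945). Within form A the difference of Gad1 between the sexes was −0.09 (adjusted p = 0.805 in edgeR), and −0.37 without 9-1x (adjusted p = 0.101 in edgeR). For Gad1 the ratios of the 2 libraries were 0.903 (0.861 to 0.946) in N2-2y and 1.00 (0.957 to 1.05) in N4-3x. The form was read by a different rule in each sex, and its part in the sex difference of Slc32a1 was not tested further.

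**Figure D3:**
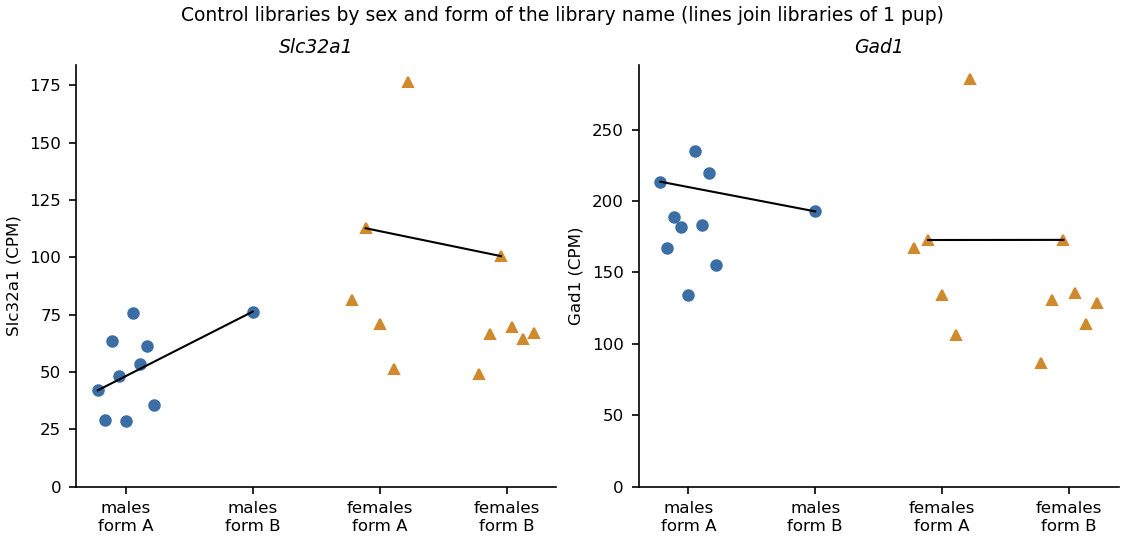
CPM of Slc32a1 and Gad1 (y axes, from 0) in each control library by sex and form of the library name (x axis), with lines that join the 2 libraries of pups N2-2y and N4-3x. Slc32a1 is 42.1 CPM in the form A library of N2-2y and 76.4 CPM in its form B library, whereas Gad1 is 214 and 193 CPM.

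The ratio of Gad1 to Gad2 counts, free of library size, compared the 2 synthesis genes within each pup. It was 3.18 to 4.84 in the 9 male controls, with a median of 4.37, and 2.60 to 5.16 in the 10 female controls, with a median of 3.55. In Aro0.5 males it was 4.69 to 6.43 with a median of 5.44, higher than in controls by 0.42 on the log2 scale (2-sided exact permutation test, p = 0.014, adjusted p = 0.126 over 9 comparisons). In Aro5 males it was 2.37 to 4.29 with a median of 3.56, a log2 difference of −0.25 from controls (exact permutation test, p = 0.098, adjusted p = 0.442). In CPF3 males, where both genes were low, it was 3.16 to 4.53 with a median of 4.11, and the difference was −0.04 (exact permutation test, adjusted p = 0.771). In females the differences were 0.20 (Aro5), −0.08 (BPA5) and −0.20 (CPF3), and 0.23, −0.05 and −0.17 without control 9-1x. None of the 9 comparisons passed, although a design of 4 against 9 pups could have reached a p of 0.0014.

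Gad1, Gad2, Slc32a1 and Abat varied together within groups. Correlations were computed over deviations of log2 CPM from the group mean, with 1 pup per litter, for 10 pairs of members in 40 males and in 22 females. Among Gad1, Gad2, Slc32a1 and Abat, Pearson's r of the 6 pairs was 0.61 to 0.87 in males (Spearman's rho, 0.66 to 0.85) and 0.82 to 0.94 in females (rho, 0.80 to 0.91). Permutation p values adjusted over 10 pairs were 2.5e-05 to 0.0002 for r in males and 3.33e-05 to 8.33e-05 in females, where 1e-05 was the smallest unadjusted p that 100000 permutations can give. The closest pair was Gad1 and Slc32a1 in females (r = 0.94) and Gad1 and Gad2 in males (r = 0.87). Without the 2 pups farthest from the median of the first gene, r was 0.55 to 0.84 in males and 0.74 to 0.90 in females. Without control 9-1x (21 females) r was 0.71 to 0.90, with adjusted permutation p values of 5e-05 to 0.000133. Within males of form A (20 pups) r was 0.67 to 0.84, and within males of form B (19 pups) 0.53 to 0.91.

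Slc6a11 did not pass the test with Gad1 in either sex. With Gad1 its r was 0.27 in males (rho = 0.22, permutation p = 0.135, adjusted p = 0.135) and −0.09 in females (rho = −0.13, permutation p = 0.690, adjusted p = 0.766). In males Slc6a11 went with Abat (r = 0.68, rho = 0.60, permutation p = 0.00014, adjusted p = 0.0002; r = 0.54 without the 2 farthest pups), whereas in females r was 0.28 (rho = 0.18, permutation p = 0.273, adjusted p = 0.390). The r of Slc6a11 with Gad2 and Slc32a1 was 0.40 and 0.38 in males (rho, 0.32 and 0.32), with adjusted permutation p values of 0.0197 and 0.0228 for r and 0.0671 for both rho. In females these were 0.02 and −0.15 (rho, −0.00 and −0.21; adjusted permutation p, 0.923 and 0.648). The difference between the sexes was not tested.

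The synthesis and packaging genes also followed the striatal markers from pup to pup. Over the same deviations, the log2 striatal sum had an r of 0.70 to 0.74 with Gad1, Gad2 and Slc32a1 in males (rho, 0.67 to 0.75) and of 0.81 to 0.90 in females (rho, 0.77 to 0.91), with permutation p values adjusted over 20 relations in each sex of 6.67e-05 in males and 0.0004 to 0.0018 in females. Without the 2 pups of the most extreme striatal sum, r was 0.65 to 0.72 in males and 0.75 to 0.86 in females. Within males it was 0.69 to 0.72 in form A and 0.72 to 0.75 in form B, and within females it was 0.75 to 0.86 without control 9-1x. The summed interneuron markers had an r of 0.38 to 0.59 with these 3 genes in males and 0.72 to 0.84 in females, with adjusted permutation p values of 0.0032 to 0.0944 and 0.00232 to 0.0105. Without 9-1x it was 0.64 to 0.76 in females, and the relation with Gad2 no longer passed (adjusted permutation p = 0.0509). Within males it was 0.43 to 0.74 in form A (adjusted permutation p, 0.0106 to 0.282). In form B it was 0.35 to 0.51, and none of the 3 genes passed (adjusted permutation p, 0.0734 to 0.330). Without the 2 pups of the most extreme interneuron sum, r was 0.26 to 0.52 in males and 0.61 to 0.75 in females. Slc6a11 had an r of 0.00 with the striatal sum in males and −0.44 in females (adjusted permutation p, 0.978 and 0.0995), and of 0.34 and 0.40 with the astrocyte sum (adjusted permutation p, 0.0617 and 0.0969). With the thalamic sum its r was 0.29 in males and 0.72 in females (adjusted permutation p, 0.0944 and 0.0105). Abat had an r of 0.48 with the striatal sum in males and 0.64 in females (adjusted permutation p, 0.011 and 0.012). Within males this r was 0.40 in form A and 0.53 in form B (adjusted permutation p, 0.218 and 0.0734). In females without control 9-1x it was 0.48 (adjusted permutation p = 0.0509), so that it passed in none of these splits. With the astrocyte sum the r of Abat was 0.37 in males and 0.44 in females (adjusted permutation p, 0.079 and 0.101). Within males it was 0.70 in form A and 0.19 in form B (adjusted permutation p, 0.0106 and 0.647). The marker lists were chosen after other values of these data had been seen, and these sums come from the same libraries as the members.

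**Figure D4:**
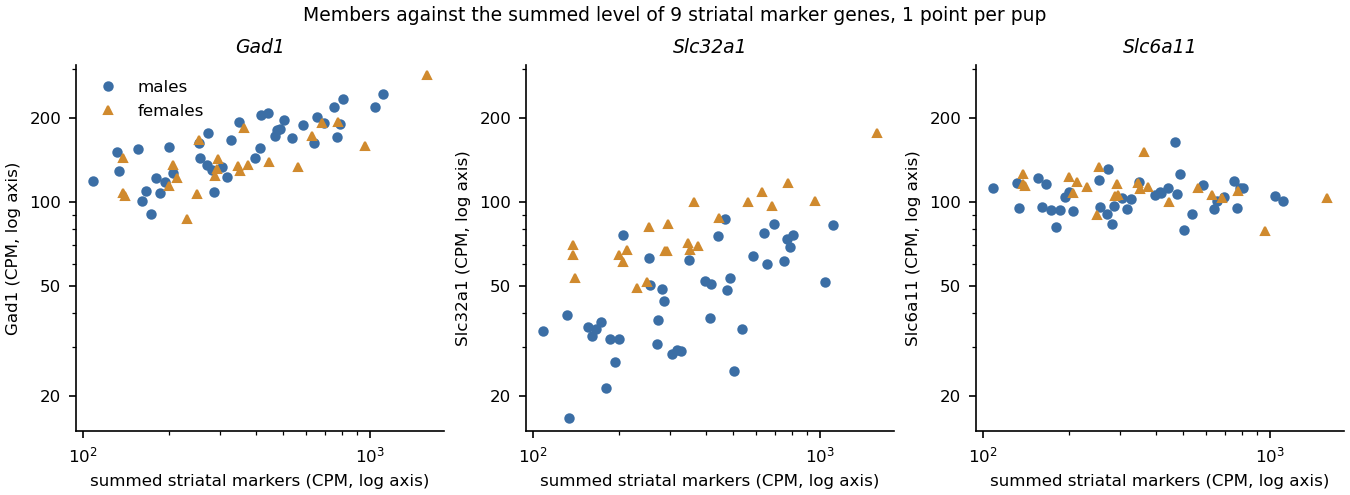
CPM of Gad1, Slc32a1 and Slc6a11 (y axes, log scale) against the summed CPM of 9 striatal genes (x axes, log scale) in each of the 41 males (circles) and 23 females (triangles). Gad1 and Slc32a1 rise with the striatal sum, which spans 108 to 1586 CPM, Slc6a11 does not, and the female with the highest sum is CONSC 9-1x.

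The genes most like each member were listed by Pearson's r of deviations from the group means over 64 pups, among genes with a mean of at least 1 CPM. For Gad1 these were Gnal (r = 0.92), Pbx3 (0.91), Spata13 (0.91), Cdhr1 (0.91) and Meis1 (0.90), and Gad2 came in place 15 (0.87). For Gad2 they were Akap5 (0.89), Ptprt (0.88), Gpr101 (0.88), Gnal (0.87) and Gad1 (0.87). For Slc32a1 they included Ptpn5 (0.91), Cpne5 (0.90), Crocc (0.89) and Kcnt1 (0.89). Gnal encodes the olfactory type G protein α subunit, and Ptpn5 the striatum-enriched tyrosine phosphatase STEP. For Abat, Gad2 came first (0.85), and Dock10 (0.82), Sv2c (0.82) and Kcnt1 (0.82) were among the next. For Slc6a11 they were Slc12a5 (0.81), the neuronal potassium-chloride cotransporter KCC2, Lgi3 (0.80), Cit (0.79), Map1a (0.78) and Clstn3 (0.77), with no member nearer than Abat in place 366 (0.52).

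A list of 16 further genes of the pathway held transporters (among them Slc6a12, Slc6a13, Slc38a1, Slc38a2, Slc38a3 and Slc38a5), enzymes (among them Aldh5a1, Aldh9a1, Maob, Glul and Pdxk), the GABA-B receptor subunits Gabbr1 and Gabbr2, and Dnajc5, a chaperone of synaptic vesicles. All 16 were tested in each of the 9 comparisons of treated pups with controls, and none had an adjusted p under 0.05 in edgeR in any of them. In CPF3 males 5 of 16 had an unadjusted p under 0.05, all lower, where 12.6% of all genes passed and 7.26% were lower, and the median log2 fold change was −0.07 over the list against 0.003 over all genes. They included Glul, the glutamine synthetase of astrocytes (−0.25, SE 0.08), and Maob, a monoamine oxidase that also takes part in GABA formation from putrescine (−0.36, SE 0.12). In Aro0.5 males 5 of 16 had an unadjusted p under 0.05, all higher, where 18.5% of all genes passed and 9.55% were higher. Among the 5 were Gabbr1 (0.25, SE 0.08) and Gabbr2 (0.29, SE 0.10). Between control females and males, 4 of 16 passed an adjusted p of 0.05 in edgeR, no larger a share than the 30.9% of all genes. Pdxk, the kinase that activates the cofactor of the decarboxylases, was higher in females (0.42, SE 0.09, adjusted p = 0.0006), and Dnajc5 (−0.18, SE 0.04), Slc38a1 (−0.16, SE 0.04) and Maob (−0.27, SE 0.10) were lower. Without 9-1x these 4 still passed, together with Gabbr2 (0.29, SE 0.07), or 5 of the 15 then tested, where 36.5% of all genes passed.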

How the data were processed

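RNA-seq libraries were made from dorsal hippocampus of PND 6 pups. Per the labels and the published methods, the authors aligned reads to Rnor_6.0 with STAR, counted them per gene with featureCounts and deposited raw counts. Versions, strand setting and treatment of multiply matching reads are not given in the sources used here, so that reads of overlapping or antisense genes could not be separated. Groups, sex, pup and litter came from the labels. Nothing was excluded, and the counts of 2 libraries of the same pup name were summed. Separate pups are the replicates; libraries held 10644138 to 86206550 counts, and intervals of single counts cover counting error only.

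Groups were compared in edgeR 4.0.16 (R 4.3.3) by its quasi-likelihood F test, after TMM scaling and filterByExpr, with p values adjusted by Benjamini-Hochberg across the whole table (threshold 0.05). Fits were made for each dose level of males, for females, and for the interaction, the routes and the control sexes. An SE is the log2 fold change over the root of F. Alternatives used DESeq2 1.42.0 or limma 3.58.1. The Gad1 to Gad2 ratio was compared by exact permutation tests and correlations by 100000 permutations within groups, over log2 CPM with 1 count added (Python 3.11.15, numpy 2.4.6, pandas 2.3.3, scipy 1.17.1; figures, matplotlib 3.10.9). The count fit was tested on simulated data. Values are given for the 5 members and the most similar genes by r. Genes of the pathway list have values where an adjusted p was under 0.05 or a result turned on them. Glul, Maob, Gabbr1 and Gabbr2 in treated males were chosen after their values were seen. Individual members of the pathway and similar-gene lists are in part not reported here. Members, gene lists and tests were chosen with earlier results of these data known.

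Littermates of both sexes were checked for shared deviations: over 20 pairs r across genes was −0.51 to 0.43 (median −0.12), and 5 pairs were over 0.1. The pairing comes from the litter number in the labels.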

Additional observations from a re-analysis of the deposited data

Results flagged for a closer look

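Of 78 tests for a pup far from the rest of its group, 6 stood out, where chance gives about 1 in 20. In CONSC females, pup 9-1x had 285 CPM of Gad1, with the other 4 at 107 to 134 CPM, and 176 CPM of Slc32a1, with the others at 51.3 to 70.9 CPM. The same pup had the highest striatal sum (1586 CPM) and the lowest hippocampal sum (215 CPM), and their part in its values was not tested. In BPA5 females, pup 85-4x had 184 CPM of Gad1 (others 140 to 144 CPM) and 54.7 CPM of Abat (others 39.8 to 40.1 CPM). In CONF males, pup N2-2y had 63.7 CPM of Gad2 (others 38.2 to 39.0 CPM), summed over 2 libraries with 70.7 and 57.1 CPM. In Aro5 males, pup 120-2y had 55.8 CPM of Abat (others 32.1 to 40.7 CPM).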

How the results depend on the processing

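DESeq2 passed 1 of 5 members in CPF3 males (Gad1) and 1 in Aro0.5 males (Gad2), where edgeR passed 0. Between control sexes, 1 to 2 members passed in edgeR with each pup left out in turn, and 2 without CONSC 9-1x (Gad1, −0.46). Within form A and without CONSC 9-1x (chosen after seeing the data), 0 members passed. In males of 1 form of the library name (20 pups in A, 19 in B), Slc6a11 no longer passed with Slc32a1 (0.47 in A, 0.34 in B) or, in form B, with Gad2 (0.44), but still passed with Gad2 in form A (0.42) and with Abat in both (0.67 and 0.72). All other counts of members, ratios and correlations between members kept their side of the threshold. This held for 572 of 573 values with 1 pup left out and 173 of 179 under other settings. Correlations with the marker sums are outside this tally, and some of them no longer passed, as given above. Single fold changes changed sign in 142 cases with 1 pup left out and 45 under other settings, in each of which the value before or after lay within its SE and it was not called. Ratios and correlations between members did so in 5 and 5 cases, none of them called before or after. With litter as a replicate block (limma-voom), Slc32a1 differed by 0.70 between control sexes (adjusted p = 0.027), and the block changed no call. The number of all genes called moved by over 1.5 times with DESeq2: from 32 to 101 in Aro5, 31 to 63 in BPA5, 26 to 82 in CPF3, 20 to 269 in Aro0.5 and 7 to 39 in BPA0.5 males. With 1 pup per litter, low-dose males were not run, since none shared a litter. Group sizes of 4 to 7 treated pups limit precision, as in the 95% interval of Slc32a1 in Aro5 males (−0.55 to 0.69).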
